A study of Mus musculus with 12 samples.

Results

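Fibroblasts that received a lentivirus carrying green fluorescent protein (GFP) were compared with fibroblasts that received no virus, to see which genes differ with transduction itself. Of the 12 libraries of the series, 6 enter the comparison: 5 with GFP virus and 1 untransduced. All 12 came from mouse embryonic fibroblasts of the genotype MyoD-/-; Myf5-/-, a double knockout of 2 muscle-determining transcription factors. The GFP cells were transduced with lenti-GFP at a multiplicity of infection (MOI, virus particles per cell) of 15, 30, 60 or 120, or at a dose given as 1x, with 1 library at each. Per the labels' protocols, infection took place in medium with polybrene, a cationic polymer that helps virus attach, at 8 µg per ml. After 24 hours the cells were moved to a differentiation medium, which held insulin, transferrin and horse serum, and after 20 more hours they were harvested. The sources used here do not give how the 1x dose relates to the MOI scale, or whether the untransduced cells were given polybrene. GFP and vector sequences were not analysed here, so the share of cells that took up virus is unknown.

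The libraries were bulk RNA selected with oligo-dT. The MOI libraries held between 17.9 and 22.4 M counts each, the 1x library 81.5 M and the untransduced library 72.7 M. Levels are given in CPM, which is a gene's count for each M counted in its library. Because only 1 untransduced library exists, its spread was taken from the groups that have more than 1, and p-values measure the spread between these libraries only. The libraries of such a group differ in dose: GFP by MOI and 1x, and MyoD and Myf5 by 1x and 2x. No group holds libraries of the same dose, so the spread includes any effect of dose. The 1x library was close to the untransduced one in depth and the 4 MOI libraries were not, so values are given against all 5 GFP libraries, against 1x GFP and against the 4 MOI libraries. The last 2 comparisons share the untransduced library.

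Cells carry a pair of alarm systems that matter here. Foreign RNA or DNA is read by sensors such as RIG-I and cGAS, which lead to type I interferon, and interferon in turn switches on many antiviral genes. Cytokines such as interleukin 6 and interleukin 1 switch on a different programme, the acute phase response, which includes complement and iron-binding proteins. Cell division has 2 waves of transcription of its own, an S phase wave driven by E2F factors and a mitotic wave driven by MYBL2 and FOXM1, and fibroblasts shut down both when serum is withdrawn.

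Promoters of 3 genes are shown because the groups they stand for carry the findings: Cdc6 for DNA replication, Plk1 for mitosis and Rsad2 for the interferon response. Each had the largest absolute log2 fold change among called members whose promoter held the motif named below. The match in each was therefore fixed by the choice. By change alone Cdc6 and Plk1 ranked 2 among called members of their lists, and Rsad2 ranked 1. They are RefSeq promoters of build GRCm38.p6, which is not the build of the counts, and hold 250 bases before and 50 bases after the start of the gene, 5′ to 3′ on its strand. They lie at chr11:98907901-98908200 (plus strand), chr7:122159185-122159484 (plus strand) and chr12:26456403-26456702 (minus strand). Capitals mark the match to the motif named for each, on either strand.
Cdc6: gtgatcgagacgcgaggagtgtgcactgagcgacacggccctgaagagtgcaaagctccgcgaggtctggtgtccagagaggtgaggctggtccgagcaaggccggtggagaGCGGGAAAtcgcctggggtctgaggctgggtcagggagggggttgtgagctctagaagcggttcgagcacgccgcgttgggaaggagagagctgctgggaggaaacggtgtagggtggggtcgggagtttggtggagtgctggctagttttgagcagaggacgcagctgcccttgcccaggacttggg
Plk1: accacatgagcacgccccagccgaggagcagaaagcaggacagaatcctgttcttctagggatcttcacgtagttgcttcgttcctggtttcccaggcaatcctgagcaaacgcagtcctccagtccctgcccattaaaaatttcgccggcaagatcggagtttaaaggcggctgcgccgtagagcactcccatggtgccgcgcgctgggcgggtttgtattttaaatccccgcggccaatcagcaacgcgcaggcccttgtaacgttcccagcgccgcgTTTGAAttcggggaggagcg
Rsad2: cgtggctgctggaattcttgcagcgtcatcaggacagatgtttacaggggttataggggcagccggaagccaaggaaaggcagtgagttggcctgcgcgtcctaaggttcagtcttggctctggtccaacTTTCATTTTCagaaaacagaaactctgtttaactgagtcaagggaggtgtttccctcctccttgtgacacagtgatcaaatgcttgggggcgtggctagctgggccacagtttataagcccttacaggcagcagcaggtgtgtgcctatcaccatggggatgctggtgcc
The motifs were an E2F site (TTTNNCGC), the cell cycle homology region called CHR (TTTGAA) and the interferon-stimulated response element called ISRE (GAAA, any 2 bases, GAAA). Each was searched on both strands and counted on its own, so matches of different motifs may share bases. An E2F match was present in 9 of the 19 tested DNA replication genes with a promoter in the RefSeq table (47.4%), in 5.93% of all 27025 promoters of the same length and in 9.71% of the 9969 promoters of tested genes. The CHR letters were found in 14 of 19 mitotic genes (73.7%), in 20.2% of all promoters and in 14.3% of those of tested genes. An ISRE match was found in 22 of 38 interferon-stimulated effector genes (57.9%), in 3.99% of all promoters and in 3.74% of those of tested genes. For the acute phase genes 1 form of the kappa B site (GGGA, any base, TTTCC) was searched, and 0 of 9 promoters held it, against 0.466% of all promoters and 0.441% of those of tested genes. These letters are so rare that 0 of 9 does not tell the list from other genes. A match is a run of letters and was not tested for binding.

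The clearest difference was in cell division genes, which were lower in every kind of GFP library. Of 23 genes of DNA replication and S phase, all tested, 20 were called lower and 0 higher against all 5 GFP libraries, by edgeR's quasi-likelihood test at a Benjamini-Hochberg adjusted p under 0.05. Over all 13825 genes tested, 5.83% were called lower and 2.52% higher. The median log2 fold change of the list, GFP virus over untransduced, was -1.30, against 0.0145 for all genes. Of 23 mitotic genes, 23 were called lower, with a median of -1.35. A smaller share of dividing cells and less of these RNAs per cell cannot be told apart in bulk RNA.

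**Figure D1:**
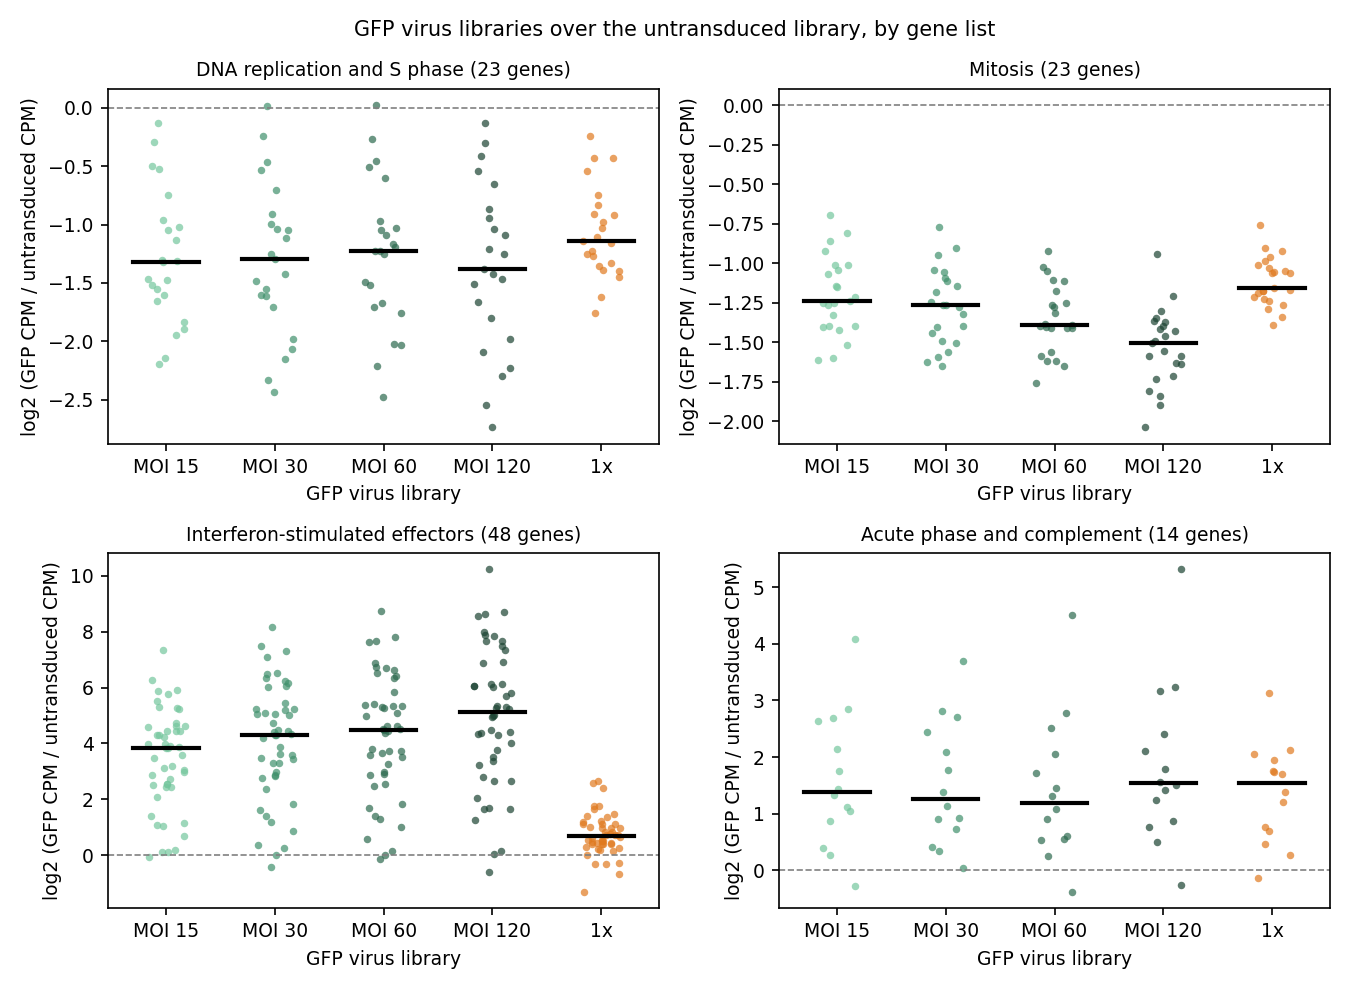
Each point is 1 gene of a list in 1 GFP virus library, as the log2 ratio of its CPM to its CPM in the untransduced library (dashed line at 0), and black bars are medians over the genes. In the 4 MOI libraries (green) and in 1x GFP (orange) the 23 mitotic genes all lie under 0, whereas the 48 interferon-stimulated effectors have a median log2 fold change of 4.43 in the MOI libraries and 0.68 in 1x GFP.

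Thymidine kinase, Tk1, which makes thymidine nucleotides for DNA synthesis, had 14.8, 12.1, 11.8 and 9.82 CPM at an MOI of 15, 30, 60 and 120 and 21.3 CPM in 1x GFP, against 65.5 CPM in untransduced cells. Every GFP library was below the untransduced one, and 1x GFP lay above the 4 MOI libraries. The log2 fold change was -2.25 ± 0.30 (SE) against all 5 GFP libraries (edgeR quasi-likelihood, Benjamini-Hochberg adjusted p = 0.0031), -1.62 ± 0.23 in 1x GFP (adjusted p = 0.0099) and -2.49 ± 0.16 in the MOI libraries (adjusted p = 5.1e-05).
Cdc6, which loads the replicative helicase onto origins, had 2.03, 1.85, 2.01 and 1.60 CPM along the MOI series and 2.75 CPM in 1x GFP, against 9.30 CPM in untransduced cells. Over all 5 its log2 fold change was -2.19 ± 0.25 (adjusted p = 0.0020).
Mcm5, a subunit of that helicase, had 25.0, 22.1, 22.7 and 19.7 CPM along the series and 33.9 CPM in 1x GFP, against 92.6 CPM without virus. The Mcm5 fold change on the log2 scale was -1.94 ± 0.23 (adjusted p = 0.0021), and 5 of the 6 Mcm2 to Mcm7 subunits were called lower. Mcm6, the exception, stood at 99.9, 104, 104 and 116 CPM along the MOI series and 76.3 CPM in 1x GFP, against 143 CPM without virus, with a log2 fold change of -0.57 that did not pass.
Rrm2, a subunit of ribonucleotide reductase, had 18.7 to 23.9 CPM in the MOI libraries and 36.6 CPM in 1x GFP, against 91.9 CPM in untransduced cells, a log2 fold change of -1.93 ± 0.27. The other members not called against all 5 libraries were Cdt1, which works with Cdc6 at origins (log2 fold change -1.04), and Gins2, a helicase cofactor (-0.17). Gins2 was the 1 member of 23 whose untransduced value, 49.4 CPM, lay within the range of the GFP libraries (36.7 to 50.1 CPM). Over all genes the untransduced library lay above all 5 GFP libraries in 25.5%.

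Mitotic genes fell as well. Polo-like kinase 1, Plk1, which drives spindle assembly, had 21.2, 20.4, 21.7 and 17.9 CPM along the MOI series and 27.2 CPM in 1x GFP, against 64.2 CPM in untransduced cells. Its log2 fold change was -1.60 ± 0.21 against all 5 GFP libraries (edgeR quasi-likelihood, Benjamini-Hochberg adjusted p = 0.0031). The proliferation marker Mki67 had 132, 122, 118 and 99.8 CPM along the series and 112 CPM in 1x GFP, against 293 CPM without virus. All 5 GFP values lay far below the untransduced value, and 1x GFP lay among the MOI libraries. Aurora kinase B, Aurkb, stood at 9.42 to 16.7 CPM with GFP virus and 38.7 CPM without it, a log2 fold change of -1.66 ± 0.23. The checkpoint kinase Bub1 (22.1 to 28.7 CPM with GFP virus and 72.6 CPM without) and the spindle motor Kif11 (31.4 to 44.6 CPM with GFP virus and 104 CPM without) changed by -1.58 ± 0.16 and -1.54 ± 0.19 on the log2 scale. The mitotic changes ran from -0.90 for the kinetochore motor Cenpe to -1.66 for Aurkb, so the 23 genes lay closer together than the 23 replication genes, whose range was -2.25 to -0.17.

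The untransduced library was above all 5 GFP libraries in 23 of 23 mitotic genes and in 22 of 23 replication genes. The summed level of the replication genes was 745, 748, 757 and 724 CPM along the MOI series and 830 CPM in 1x GFP, against 1692 CPM in the untransduced library. The mitotic sum was 1206, 1148, 1087 and 954 CPM along the series and 1249 CPM in 1x GFP, against 2701 CPM without virus. The other 4 transduced libraries of the table, which carried MyoD or Myf5 virus, had sums of 778 to 890 CPM for replication and 899 to 1285 CPM for mitosis. All 9 transduced libraries therefore lay below the untransduced library in both sums. With those 9 taken as 1 group, 15 replication genes and 22 mitotic genes were called lower, as were 357 of all 13825 genes tested.

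In 1x GFP alone, the library closest in depth to the untransduced one, 19 of the 23 replication genes and 21 of the 23 mitotic genes were called lower, against 3.37% of all genes, with medians of -1.14 and -1.16. In the 4 MOI libraries the counts were 22 and 23, against 19.2% of all genes, with medians of -1.34 and -1.42. In both comparisons 19 replication genes and 21 mitotic genes were called lower, against 3.05% of all genes. Fitted on the 6 deeper libraries alone, where 2 residual degrees of freedom come from the MyoD and Myf5 doses, the 1x comparison called 0 genes of either list, although 21 replication genes and 23 mitotic genes had an unadjusted p under 0.05.

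Some regulators of the cycle were lower too. The E2F family member E2f7 stood at 3.94 to 6.28 CPM in the MOI libraries and 8.04 CPM in 1x GFP, against 24.4 CPM in untransduced cells, a log2 fold change of -2.19 ± 0.30, and E2f8 changed by -2.06 ± 0.36. Both are repressors of E2F target genes. The regulators that follow were chosen after values were seen. Mybl2 and Foxm1, which drive mitotic genes, changed by -1.66 ± 0.16 and -1.44 ± 0.16. Cyclin D1, Ccnd1, which couples growth signals to the cycle, had 131 to 153.7 CPM in the MOI libraries and 233.5 CPM in 1x GFP, against 318 CPM in untransduced cells, with log2 fold changes of -1.03 ± 0.27 over all 5 (adjusted p = 0.049) and -0.44 ± 0.14 in 1x GFP (adjusted p = 0.12). The inhibitor gene Cdkn1a, which encodes p21, had 347, 365, 397 and 416 CPM along the MOI series and 303 CPM in 1x GFP, against 243.7 CPM without virus. That log2 fold change, 0.54 ± 0.22, did not pass (adjusted p = 0.15). The changes of Cdkn1b, Rb1 and Rbl2 did not pass in any of the 3 comparisons, with log2 fold changes of 0.12, 0.24 and -0.06 over all 5. Of 20 tested p53 target genes, 2 were called higher against all 5 GFP libraries, where 2.52% of all genes were. These were Bbc3 (24.1 to 27.2 CPM with GFP virus and 17.2 CPM without) and Sesn2 (81.5 to 92.2 CPM with GFP virus and 64.4 CPM without).

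**Figure D2:**
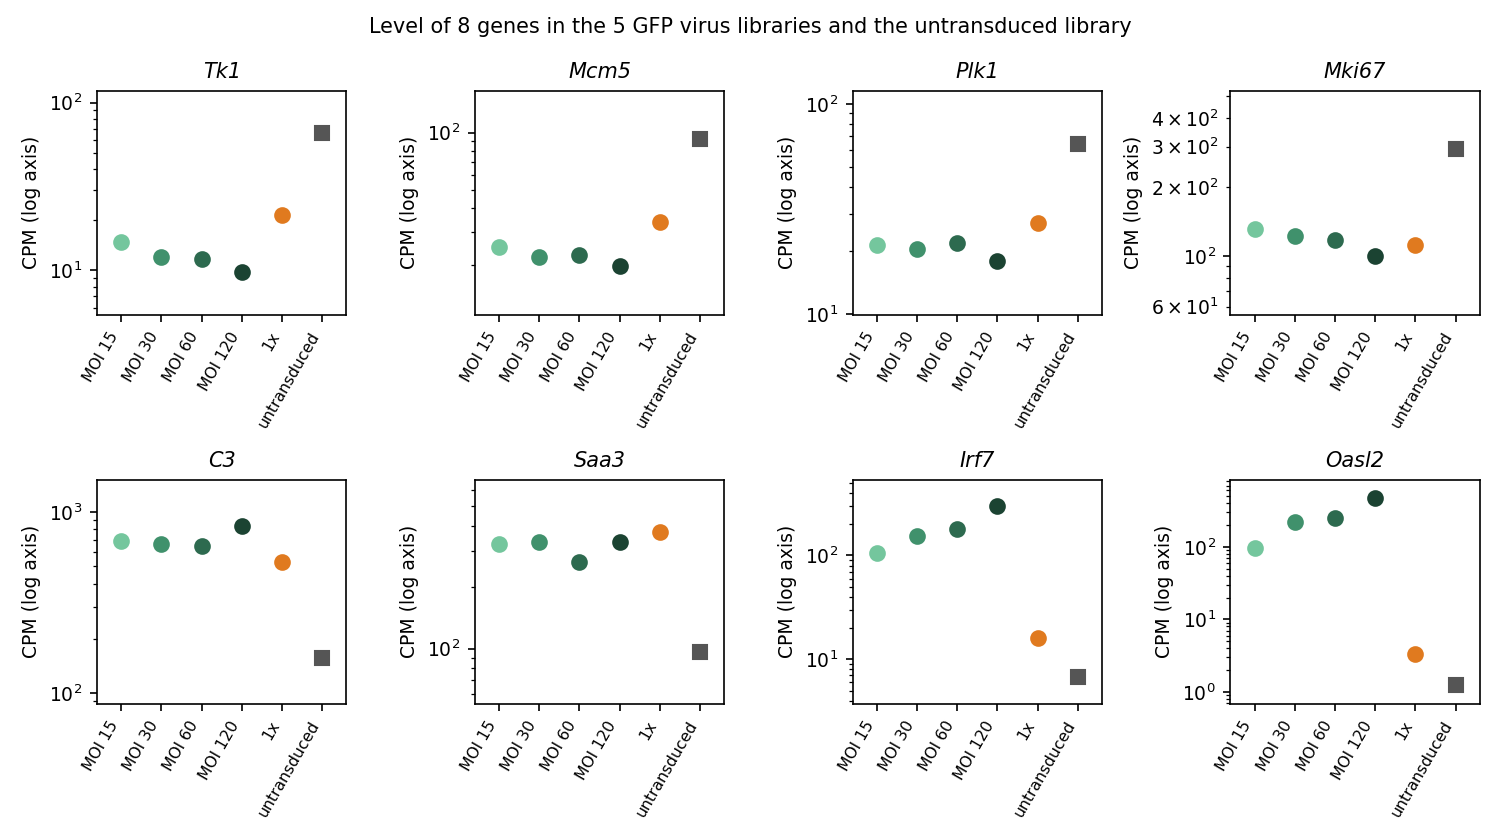
The CPM of 8 genes (log axis) is shown for the 5 GFP virus libraries (circles) and the untransduced library (square). Tk1, Mcm5, Plk1 and Mki67 are lower in every GFP library, C3 and Saa3 are higher in every one, and Irf7 and Oasl2 are far higher in the MOI libraries than in 1x GFP or untransduced cells.

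Acute phase and complement genes moved the other way, also in both kinds of GFP library. Of 14 tested genes, 7 were called higher and 0 lower against all 5 libraries, against 2.52% and 5.83% of all genes. Their median log2 fold change was 1.29. In 1x GFP 6 were called higher, against 1.57% of all genes, with a median of 1.54, and in the MOI libraries 9 were, against 18.2% of all genes, with a median of 1.28. Of the 14, 2 stood under 1 CPM in the untransduced library and passed the filter on low values through transduced libraries, and of the other 12, 6 were called higher against all 5. The count of 7 was 4 without the MOI 15, 30 or 120 library. The untransduced library lay below all 5 GFP libraries in 12 of the 14, and in 32.2% of all genes.

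Lipocalin 2, Lcn2, which binds bacterial iron carriers, had 10.9, 11.9, 9.61 and 15.3 CPM along the MOI series and 14.7 CPM in 1x GFP, against 1.69 CPM in untransduced cells. Its log2 fold change was 2.85 ± 0.36 against all 5 (edgeR quasi-likelihood, Benjamini-Hochberg adjusted p = 0.0025), with 3.12 ± 0.36 in 1x GFP and 2.76 ± 0.33 in the MOI libraries. The 5 GFP libraries overlapped each other and lay clear of the untransduced one.
Complement component C3, the hub of the complement cascade, had 693, 665, 651 and 836 CPM along the series and 529 CPM in 1x GFP, against 157 CPM without virus, a log2 fold change of 2.06 ± 0.23 (adjusted p = 0.0019). Serum amyloid A3, Saa3, had 326, 331, 265 and 334 CPM along the series and 372 CPM in 1x GFP, against 96.7 CPM in untransduced cells, a log2 fold change of 1.71 ± 0.31 (adjusted p = 0.012). For both genes all 5 GFP libraries lay clear of the untransduced one.
Haptoglobin, Hp, which binds free haemoglobin, stood at 3.04 to 5.72 CPM with GFP virus and 0.921 CPM without it. The metalloreductase Steap4 split the GFP libraries: it had 111, 102, 106 and 146 CPM along the MOI series and 35.6 CPM in 1x GFP, against 15.5 CPM without virus. Its log2 fold change was 2.86 ± 0.37 in the MOI libraries and 1.20 ± 0.39 in 1x GFP (adjusted p = 0.12), and the MOI libraries exceeded 1x GFP by 1.65 ± 0.33 (adjusted p = 0.011). With the MyoD and Myf5 libraries added to the GFP libraries, 0 of the 14 genes were called, with 6 at an unadjusted p under 0.05: the summed level was 1728 to 2611 CPM with GFP virus and 1608 and 1698 CPM with Myf5 virus, but 669 and 959 CPM with MyoD virus, against 757 CPM without virus.

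The interferon response separated the 2 kinds of GFP library by the size of the change. The untransduced library lay below all 5 GFP libraries in 42 of 48 interferon-stimulated effector genes, and in 32.2% of all genes. In 1x GFP 43 of the 48 had a positive log2 fold change. Their spread was taken over libraries of different dose, whose summed level ran from 4380 to 9905 CPM along the MOI series. The 1x test was therefore imprecise for these genes, and a lack of calls does not show a lack of response. Of 48 interferon-stimulated effector genes, all tested, 42 were called higher in the 4 MOI libraries against untransduced cells, against 18.2% of all genes, with a median log2 fold change of 4.43. In 1x GFP 0 of the 48 were called by edgeR, with 0 at an unadjusted p under 0.05 and 0 called by DESeq2, and the median was 0.68. The difference between the kinds was itself tested: 40 of the 48 were called higher in the MOI libraries than in 1x GFP, against 12.1% of all genes. At equal depth, with all libraries thinned to the shallowest, 38 were called in the MOI libraries and 0 in 1x GFP. Of the 48, 13 stood under 1 CPM in untransduced cells and passed the filter through transduced libraries, and of the remaining 35, 29 were called in the MOI libraries. Those 35 had a median log2 fold change of 3.72 there. The 48 genes tested between the kinds include the 13. With 1x and MOI libraries pooled as 5, edgeR called 0 of 48, with 39 at an unadjusted p under 0.05, and DESeq2 called 41.

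Oasl2, an oligoadenylate synthetase-like antiviral protein, had 96.0, 220, 247 and 467 CPM along the MOI series and 3.30 CPM in 1x GFP, against 1.24 CPM in untransduced cells. The lowest MOI library lay far above 1x GFP, and 1x GFP lay above the untransduced library but nearer to it than to any MOI library. Its log2 fold change over untransduced was 7.64 ± 1.75 in the MOI libraries (edgeR quasi-likelihood, Benjamini-Hochberg adjusted p = 0.011) and 1.41 ± 1.78 in 1x GFP (adjusted p = 0.72).
Oas2, which makes the messenger that activates RNase L, had 17.6, 45.7, 64.3 and 121 CPM along the series and 0.319 CPM in 1x GFP, against 0.289 CPM without virus. Rsad2, which encodes the antiviral enzyme viperin and whose promoter is shown above, had 578 counts over the MOI libraries and 1 count in the untransduced library. Scaled to library totals that is a ratio of 525, with a 95% counting interval of 93.9 to 20780. In 1x GFP it had 7 counts, a ratio of 6.25 with an interval of 0.802 to 281.5, so no difference was detectable at this depth. These intervals cover counting error only.

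Upstream of the effectors, Irf7, which amplifies interferon production, had 105, 156, 179 and 298 CPM along the MOI series and 15.9 CPM in 1x GFP, against 6.71 CPM in untransduced cells. Here 1x GFP lay nearer to untransduced cells than to any MOI library. The log2 fold change was 4.73 ± 0.91 in the MOI libraries (edgeR quasi-likelihood, Benjamini-Hochberg adjusted p = 0.0050) and 1.24 ± 0.89 in 1x GFP (adjusted p = 0.48). Of 18 tested genes of interferon signalling, 8 were called higher in the MOI libraries, against 18.2% of all genes. In 1x GFP edgeR called 1, the interferon gamma receptor chain Ifngr2, against 1.57% of all genes, and DESeq2 called 3. The interferon gene Ifnb1 itself stood at 0.101, 0, 0.134 and 0.499 CPM along the series, 0 in 1x GFP and 0.055 in untransduced cells, too low to be tested.
Among the receptors that sense nucleic acid, Ifih1, which encodes MDA5 and reads long double-stranded RNA, had 39.4, 66.0, 69.6 and 118 CPM along the series and 7.31 CPM in 1x GFP, against 4.14 CPM without virus. Zbp1, a sensor of Z-form nucleic acid, had 6.18, 14.4, 16.2 and 37.8 CPM along the series and 0.528 CPM in 1x GFP, against 0.124 CPM without virus. Of 16 tested sensors and adaptors, 10 were called higher and 1, the RNA receptor Tlr7, lower in the MOI libraries, and 0 in 1x GFP by edgeR or DESeq2, with 1 at an unadjusted p under 0.05. Over all genes 18.2% were called higher and 19.2% lower in the MOI libraries. Of the 16, 1 stood under 1 CPM in untransduced cells and passed the filter through transduced libraries. The other 15 had a median log2 fold change of 1.72 in the MOI libraries. Tlr7 had 0.253, 0.056, 0.313 and 0.399 CPM along the series and 2.09 CPM in 1x GFP, against 2.39 CPM without virus. The adaptors Mavs and Tmem173 (STING) showed log2 fold changes of -0.11 and -0.14 in the MOI libraries, which did not pass.

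MHC class I genes present peptides to T cells. All 13 tested genes were called higher in the MOI libraries, against 18.2% of all genes, with a median log2 fold change of 1.45, and 0 in 1x GFP by edgeR or DESeq2, with 3 at an unadjusted p under 0.05 and a median of 0.38. H2-K1 had 163, 208, 212.5 and 276 CPM along the series and 85.9 CPM in 1x GFP, against 40.5 CPM in untransduced cells. The untransduced library was below all 5 GFP libraries in all 13. Of the 13, 1 stood under 1 CPM in untransduced cells and passed the filter through transduced libraries. The other 12 had a median log2 fold change of 1.43 in the MOI libraries. The MOI libraries exceeded 1x GFP in 8 of the 13 at an adjusted p under 0.05. Of 16 tested genes that restrict or silence retroviruses, 7 were called higher in the MOI libraries, against 18.2% of all genes, among them Bst2 (tetherin), with 246, 430, 405 and 609.5 CPM along the series and 28.6 CPM in 1x GFP, against 19.0 CPM in untransduced cells. In 1x GFP edgeR called 0 of the 16, with 2 at an unadjusted p under 0.05, and DESeq2 called 1. Of these 16, 1 stood under 1 CPM in untransduced cells and passed the filter through transduced libraries. The other 15 had a median log2 fold change of 0.22 in the MOI libraries. Samhd1, which depletes nucleotides needed for reverse transcription, had 56.6, 62.4, 70.2 and 91.3 CPM along the series and 52.9 CPM in 1x GFP, against 82.8 CPM without virus, and did not pass in any comparison.

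**Figure D3:**
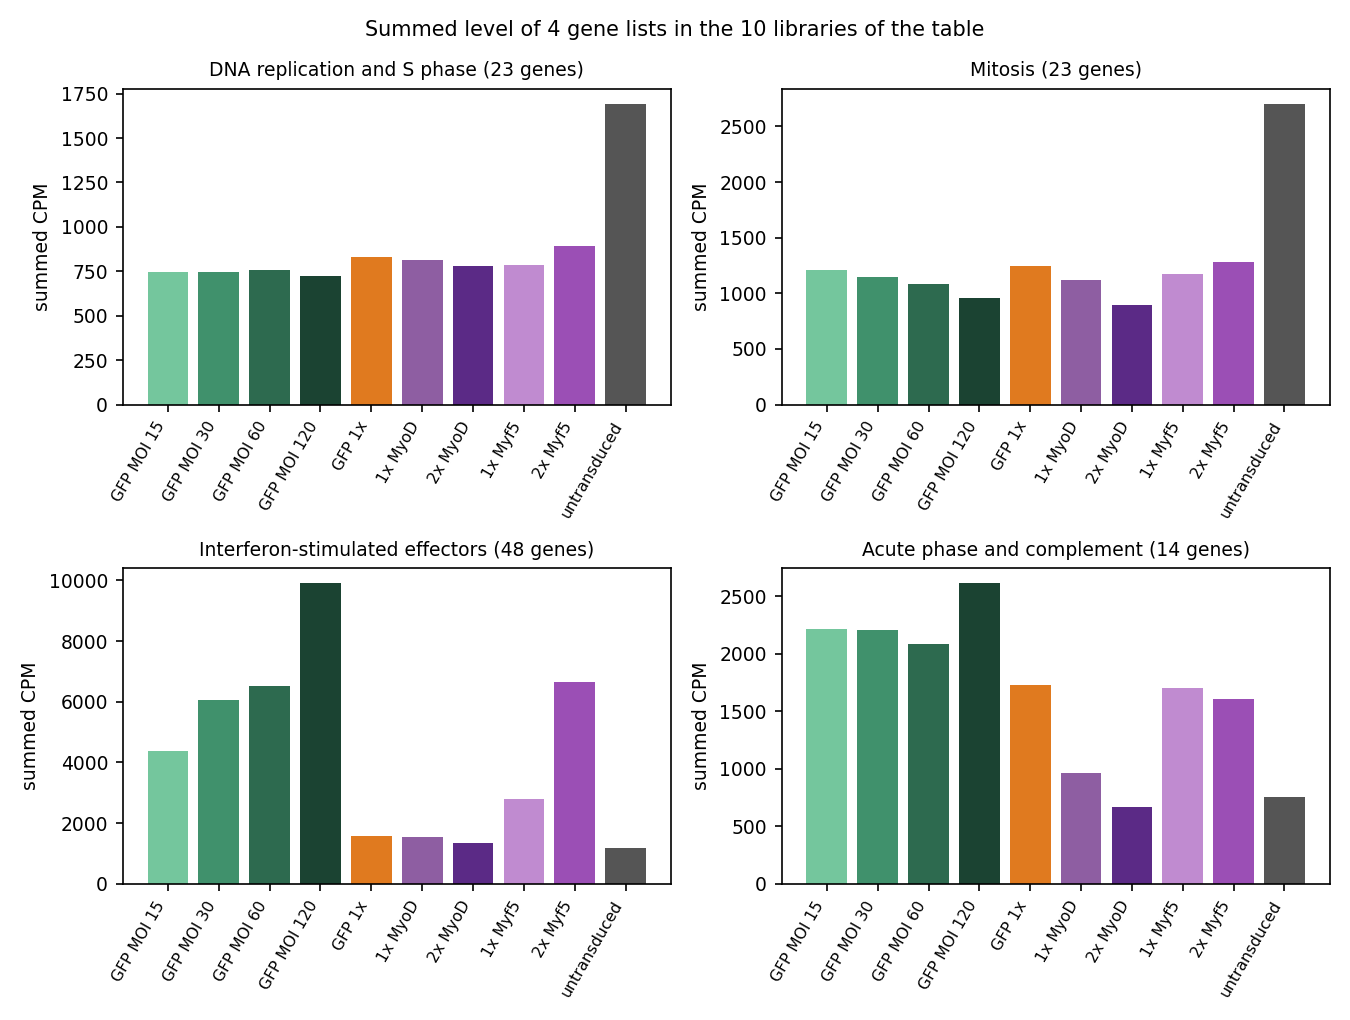
Bars give the summed CPM of 4 gene lists in the 10 libraries of the count table, GFP virus first and the untransduced library last. The 9 transduced libraries lie between 724 and 890 CPM for DNA replication and S phase, against 1692 CPM in the untransduced library, whereas the interferon-stimulated effectors run from 1354 to 9905 CPM among the transduced libraries, against 1188 CPM.

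Chemokine and NF-kB target genes had few calls against all 5 GFP libraries. Of 21 tested, 1 was called higher, a share near the 2.52% of all genes. In 1x GFP edgeR called 2 of the 21 higher, against 1.57% of all genes. DESeq2 called 5 higher there, against 480 of all 13825 genes. Both shares in 1x GFP were larger than those of all genes. The 1 called against all 5 was Ccl8, a monocyte-attracting chemokine, with 17.98, 18.6, 18.6 and 21.0 CPM along the MOI series and 13.2 CPM in 1x GFP, against 5.06 CPM in untransduced cells, a log2 fold change of 1.77 ± 0.24. Ccl8 was called higher in 1x GFP and in the MOI libraries alike. Ccl5 and Cxcl10, which interferon also switches on, had 15.4 to 79.7 CPM and 23.2 to 72.8 CPM in the MOI libraries, 4.72 and 4.78 CPM in 1x GFP and 1.77 and 2.46 CPM in untransduced cells. The inhibitor Nfkbia, a standard NF-kB target, had 133 to 160 CPM in GFP libraries and 138 CPM in the untransduced library.

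Several smaller groups had members called in both kinds of library. Lysosome and autophagy genes were called higher in 6 of 16 against all 5 GFP libraries, against 2.52% of all genes, and 6 were called higher in 1x GFP, against 1.57%. The protease cathepsin L, Ctsl, had 2732, 2609, 2668 and 2602 CPM along the MOI series and 2417 CPM in 1x GFP, against 1615 CPM in untransduced cells, a log2 fold change of 0.64 ± 0.09 (edgeR quasi-likelihood, Benjamini-Hochberg adjusted p = 0.0039). Cathepsin D, Ctsd, hexosaminidase Hexa and the autophagy protein Gabarapl1 changed by 0.46, 0.55 and 0.51.
Genes of the unfolded protein and integrated stress responses were called higher in 4 of 20 and lower in 1 against all 5 GFP libraries, where 2.52% of all genes were called higher and 5.83% lower. Trib3, a pseudokinase induced by amino acid stress, had 32.2, 24.1, 20.9 and 17.8 CPM along the series and 35.6 CPM in 1x GFP, against 7.05 CPM without virus, and Ddit3 (CHOP) had 88.8, 98.9, 103.9 and 126 CPM along the series and 76.2 CPM in 1x GFP, against 38.9 CPM. Slc7a11, the cystine importer, was called higher in both 1x GFP (log2 fold change 1.06) and the MOI libraries (0.94), whereas the chaperone Calr was called lower in both (-0.72 and -0.48). Of the 20 genes, 3 were called higher and 1 lower in both.
Heat shock genes were called lower in 3 of 11 and higher in 0 in the comparison with all 5 libraries, against 5.83% and 2.52% of all genes. Hsp90aa1, the inducible HSP90, had 593, 599, 608 and 627 CPM along the series and 553 CPM in 1x GFP, against 885 CPM in untransduced cells, a log2 fold change of -0.61 ± 0.08 (adjusted p = 0.0027). Hspd1 and Dnajb1 changed by -0.46 and -0.44. The count of heat shock genes was 1 when any 1 of the MOI libraries was left out and 8 without the 1x library. The lysosome count was 3 without the MOI 30 library and 2 without the MOI 60 library.

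Genes of hypoxia and glycolysis were called lower in 4 of 15 and higher in 1 against all 5 GFP libraries, where 5.83% of all genes were called lower and 2.52% higher. Lactate dehydrogenase A, Ldha, had 214, 203, 210 and 185 CPM along the MOI series and 305 CPM in 1x GFP, against 436 CPM in untransduced cells, a log2 fold change of -1.003 ± 0.22 (edgeR quasi-likelihood, Benjamini-Hochberg adjusted p = 0.027). The vasodilator peptide gene Adm had 4.76 to 5.78 CPM in the MOI libraries and 12.5 CPM in 1x GFP, against 29.7 CPM without virus. For both genes 1x GFP lay between the MOI libraries and the untransduced one. Vegfa, the vascular growth factor and the 1 member called higher, had 64.7 to 77.6 CPM with GFP virus and 39.4 CPM without it. Serum response genes were called lower in 2 of 22 (Ccn1, Dusp1) and higher in 2 (Fos, Egr2), against 5.83% and 2.52% of all genes. Ccn1, a matrix protein and a target of YAP and serum response factor, had 24.7, 24.7, 24.1 and 27.0 CPM along the series and 50.1 CPM in 1x GFP, against 95.4 CPM in untransduced cells.

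**Figure D4:**
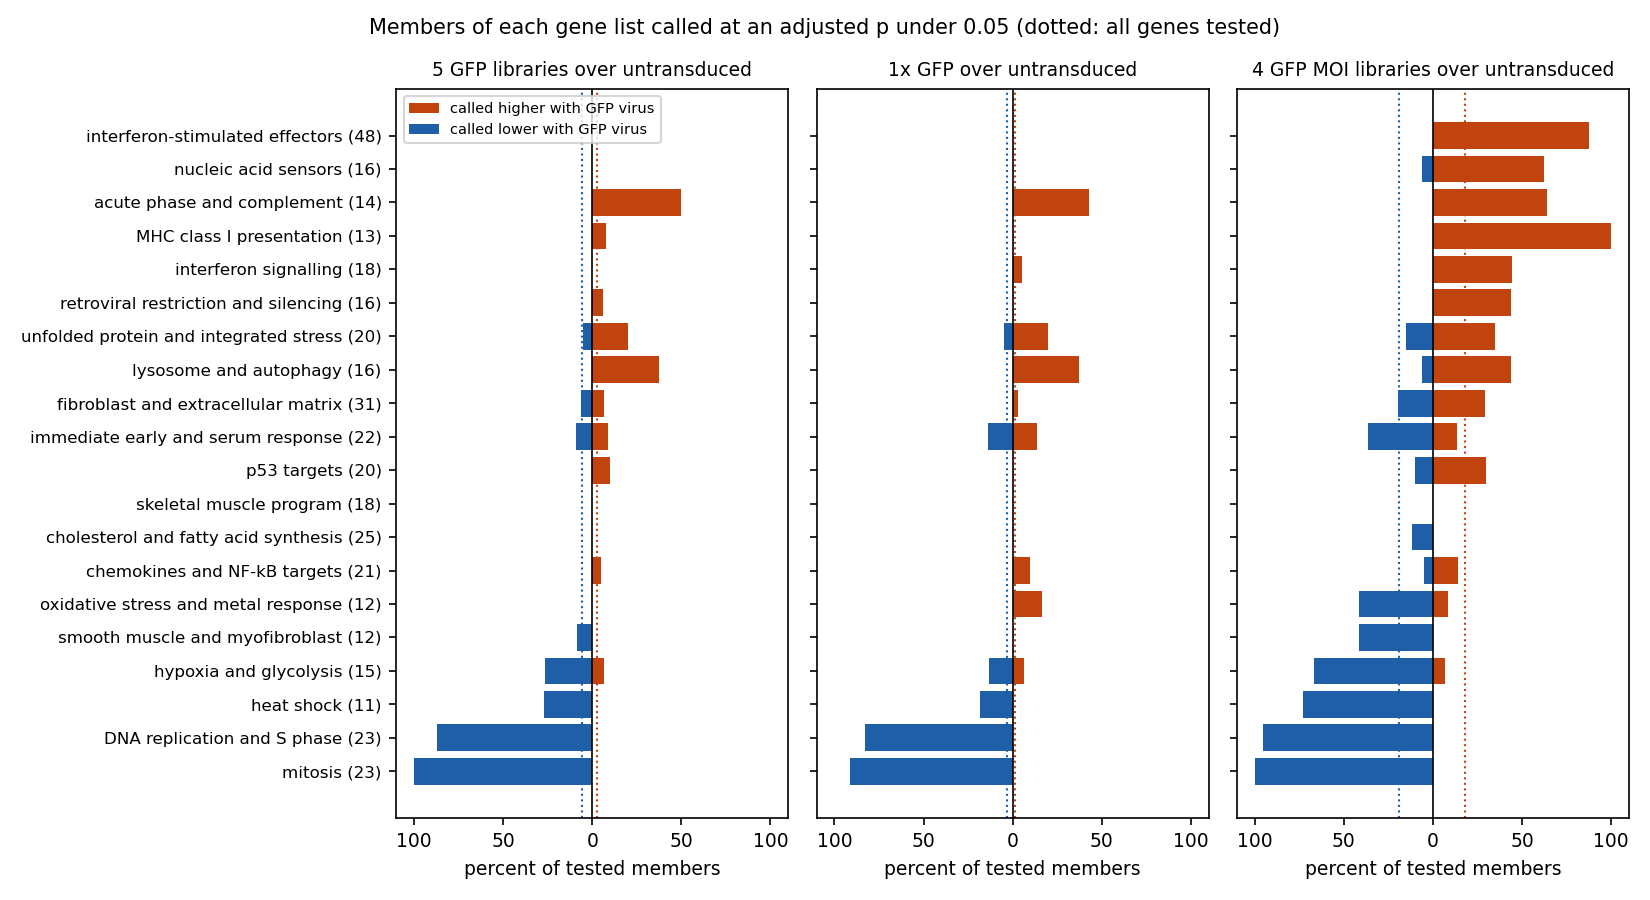
Bars give the percent of tested members of each gene list (number tested in brackets) called higher (right) or lower (left) with GFP virus at an adjusted p under 0.05, for all 5 GFP libraries, for 1x GFP and for the 4 MOI libraries, each over the untransduced library. Dotted lines mark the percent of all genes called in that direction. Mitosis and DNA replication reach far past the line in all 3 panels, whereas interferon-stimulated effectors do so in the MOI panel alone.

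Among genes called against all 5 GFP libraries, which include no interferon-stimulated effector, the rises were led by Ehf, an epithelial ETS transcription factor, with 5.27, 7.67, 7.46 and 8.53 CPM along the MOI series and 3.12 CPM in 1x GFP, against 0.440 CPM in untransduced cells, a log2 fold change of 3.79 ± 0.58. Penk, which encodes the opioid precursor proenkephalin, had 8.86, 8.29, 7.42 and 6.18 CPM along the series and 6.72 CPM in 1x GFP, against 2.04 CPM in untransduced cells, and Enpp2 (autotaxin, which makes lysophosphatidic acid) had 7.83 to 10.1 CPM with GFP virus and 3.03 CPM without. In all 3 genes every GFP library lay above the untransduced one. Acpp, BC023719 and the decoy receptor Il1r2 were also among the 12 largest rises of called genes, with log2 fold changes of 2.08, 1.95 and 1.72 over all 5 libraries, and did not pass in 1x GFP (adjusted p of 0.084, 0.11 and 0.15). Among the 12 largest falls of called genes, besides the genes above, Fignl1, Pbk, Clspn, Tcf19, Asf1b and Mcm3 changed by -2.04, -1.93, -1.92, -1.91, -1.84 and -1.81. Among the 8 largest falls shared by 1x GFP and the MOI libraries were Selenoh, a nucleolar selenoprotein, with 16.1 to 19.6 CPM with GFP virus and 51.9 CPM without it, and the lipid kinase Dgkk, with 13.6 to 15.9 CPM with GFP virus and 44.8 CPM without it. The DNA polymerase theta gene Polq, with 3.44 to 4.87 CPM with GFP virus and 11.2 CPM without, was among these 8 as well.

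Over all genes, 1154 of 13825 (8.35%) were called against all 5 GFP libraries, 348 higher and 806 lower with GFP virus, and of these 100 and 250 changed by at least 2-fold. Against 1x GFP alone 683 (4.94%) were called, 217 higher and 466 lower, and against the MOI libraries 5176 (37.4%), 2519 higher and 2657 lower. In both of these comparisons and with the same sign 556 genes (4.02%) were called, 134 higher (0.969%) and 422 lower, and 11 were called with opposite signs. Between MOI and 1x GFP 3369 genes (24.4%) were called. With all libraries thinned to the depth of the shallowest, 570 genes were called in 1x GFP and 4510 in the MOI libraries. Dose and any other difference between the preparations of these 2 kinds of library cannot be told apart. The count against all 5 was 5142 without the 1x library and 535 to 717 without any 1 of the MOI libraries.

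Fibroblast markers were high in all 6 libraries. The 9 markers, such as Col1a1 and Vim, summed to 20197 to 21637 CPM with GFP virus and 20985 CPM without it, and 1 of them, the proteoglycan Dcn, was called higher against all 5 GFP libraries and 0 lower. In the MOI libraries 1 was called higher and 4 lower (Col1a2, Thy1, Vim and S100a4), against 18.2% and 19.2% of all genes. Dcn had 3005, 3045, 3006 and 3155 CPM along the MOI series and 1805 CPM in 1x GFP, against 1205 CPM in untransduced cells. The 18 tested genes of the skeletal muscle program had 0 calls by edgeR, with 1 at an unadjusted p under 0.05 and 1 called by DESeq2, and the 20 genes written for it summed to 90.3 to 98.6 CPM with GFP virus and 102.8 CPM without. Myod1 had 5.43 to 5.99 CPM with GFP virus and 5.31 CPM without, and Myf5 had 17.2 to 20.8 CPM with GFP virus and 24.4 CPM without; the counts do not tell which exons the reads came from, so they check nothing about the knockout. Macrophage markers summed to 20.4 to 30.5 CPM with GFP virus and 26.2 CPM without, endothelial markers to 2.19 to 5.63 CPM and 3.70 CPM, and epithelial markers to 1.45 to 2.68 CPM in GFP libraries other than 1x, 1.04 CPM in 1x GFP and 1.02 CPM in untransduced cells. Adipocyte markers summed to 64.9 to 79.0 CPM in the MOI libraries, 121 CPM in 1x GFP and 122 CPM in untransduced cells, neuron and glia markers to 18.7 to 25.3 CPM, 38.7 CPM and 37.5 CPM, and cartilage and bone markers to 160 to 173 CPM, 176 CPM and 154 CPM. Many of these markers were too low to be tested. Those tested were 4 of 10 macrophage, 1 of 6 endothelial and 0 of 6 epithelial markers. For the last 3 lists they were 4 of 6 adipocyte, 3 of 6 neuron and glia and 2 of 6 cartilage and bone markers. Among the tested members of these 6 lists 1 gene was called against all 5 GFP libraries, and it was lower, as were 5.83% of all genes. It was the cytoskeletal gene Map2, with 6.88 to 8.31 CPM in the MOI libraries and 16.4 CPM in 1x GFP, against 26.3 CPM in untransduced cells.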

How the data were processed

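RNA-seq expected counts per gene, as deposited by the authors, were used for the 10 libraries of 1 table, of which 6 are compared here. Per the submitters' processing notes, CASAVA 1.8.2 and TopHat2 2.0.8 were used with the mouse build mm9. The counting step is not stated in the labels. The estimated counts deposited were not whole for 1982 to 2767 genes a library (tolerance 1e-06) and were rounded. Symbols were found for 32610 of 37287 IDs.

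Genes with at least 1 CPM in at least 2 libraries were kept (13825) and fitted with edgeR 4.0.16 (TMM, quasi-likelihood test, two-sided, Benjamini-Hochberg over all genes) in R 4.3.3. One fit took the 5 GFP libraries as a group beside MyoD, Myf5 and untransduced (6 residual degrees of freedom), and another took 1x GFP and the MOI libraries apart (5 residual degrees of freedom). The lone untransduced library is assumed to vary like the other groups, whose libraries differ in dose. Calls were made at an adjusted p under 0.05. The test was checked on simulated data with the same spread for every gene and no dose effect within a group. That check does not cover groups whose libraries differ in dose, as here.

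The text names, among genes called against all 5, the 12 largest rises and falls with a mean of at least 5 CPM and the untransduced library outside the GFP range, the 8 largest rises and falls shared by 1x GFP and MOI, and up to 4 called members of a list. Other members, and the families, were chosen after their values were seen. Members and lists were chosen with earlier results of these data known. Alternatives were other scalings, filters, depths, libraries and DESeq2 1.42.0. Promoters come from RefSeq tables of GRCm38.p6. No 2 GFP libraries agreed within sampling noise. The labels do not say whether libraries came from separate cultures. Some genes are not reported here.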

Additional observations from a re-analysis of the deposited data

Results flagged for a closer look

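In several gene groups 1 of the 5 GFP libraries lay far from the others, judged by Dixon's ratio of the gap to the nearest library over the whole range, with a critical value of 0.71. Chance gives such a gap in about 1 of 20 groups of 5 like values. The 5 libraries here differ in dose and depth, and the named genes were chosen partly by their values in them. That share is therefore no baseline for the counts given here. Of 91 named genes 19 showed such a gap, 14 with 1x GFP highest, 4 with 1x GFP lowest and 1 with the MOI 120 library highest.

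Of 27 list sums checked, 5 showed such a gap. The 1x library was the highest in the summed CPM of immediate early and serum response genes (ratio 0.975), smooth muscle genes (0.866), oxidative stress genes (0.807), endothelial markers (0.753) and adipocyte markers (0.747). Among single genes it was highest for Ccn1 (0.889), Vwf (0.881), Adm (0.868), Map2 (0.850), Txnrd1 (0.841), Fabp4 (0.827), Fignl1 (0.782), Asf1b (0.776), Mmp3 (0.762), Ldha (0.760), Tcf19 (0.751), Lpl (0.724), Mt1 (0.720) and Eno1 (0.716). It was lowest for Dcn (0.889), Acpp (0.816), Calr (0.798) and Il1r2 (0.772). Egr2, a serum response transcription factor, was highest at an MOI of 120 (0.746).

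The change against untransduced cells differed between the MOI libraries and 1x GFP, by edgeR's quasi-likelihood test of that difference, in 40 of 48 interferon-stimulated effectors, 11 of 16 nucleic acid sensors, 8 of 13 MHC class I genes, 10 of 12 oxidative stress genes, 9 of 15 hypoxia and glycolysis genes and 13 of 22 serum response genes, against 24.4% of all genes. With all libraries thinned to the depth of the shallowest, 38 of the 48 effectors were called higher in the MOI libraries and 0 in 1x GFP, both against untransduced cells. For the other lists the part of depth in this difference was not tested.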

How the results depend on the processing

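No paired analysis was possible because the untransduced group has 1 library and the labels give no replicate numbers that pair libraries. Against all 5 GFP libraries the 1154 calls became 2512 with DESeq2, 390 with all 9 transduced libraries as 1 group, and 535 to 5142 when 1 GFP library was left out, the most without 1x GFP. DESeq2 called 1186 higher and 1326 lower, against 348 and 806. For 1x GFP the 683 calls became 1252 with DESeq2, 2124 in the 6 GFP and untransduced libraries, 366 to 600 leaving 1 MOI library out, and 0 in the 6 deeper libraries, an alternative chosen after seeing the data (edgeR, 1655 genes at an unadjusted p under 0.05). Calls shared by 1x and MOI were 948 with DESeq2, 1562 in the 6 libraries and 318 to 493 leaving 1 out, against 556. The MOI count stayed within 1.5 times of 5176 under every alternative run, but with library totals only 3027 were higher and 2161 lower.

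Acute phase calls over all 5 were 4 to 9 leaving 1 out and 0 with 9 transduced libraries, against 7. Heat shock calls were 6 with DESeq2, 1 to 8 leaving 1 out and 1 with 9 transduced libraries, against 3. Lysosome calls were 3 in the 6 libraries, 2 to 7 leaving 1 out and 1 with 9 transduced libraries, against 6. In 1x GFP the replication, mitotic and acute phase counts were each 0 in the 6 deeper libraries, and in the 6 GFP and untransduced libraries the acute phase count was 10 and the interferon-stimulated effector count 2, against 6 and 0. Among the named genes reported, directions turned for Mt1, Vwf and Fabp4: Mt1 (0.0212 with library totals, 8.7e-05 when thinned to the shallowest library, -0.23 to 0.0649 leaving 1 out, 0.114 with 9 transduced libraries, against -0.02), Vwf (0.85) with 9 transduced libraries, and Fabp4 (-0.31 without 1x GFP to 0.33 leaving 1 MOI library out, against 0.20). The causes were not tested. The other alternatives kept at least 95 of 101 to 117 named gene results on their side of the threshold, except that 38 of 66 lost their call with 9 transduced libraries and 16 of 16 in the 6 deeper libraries. With 1 untransduced library, the precision of every comparison is limited by that library.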

Other observations

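Gene families, grouped by symbol after values were seen, also had members called lower with GFP virus. They overlap the lists above, so some calls are counted again: Cenpe, for example, is also in the mitotic list. Over all genes 5.83% were called lower and 2.52% higher against all 5 GFP libraries, and 3.37% lower in 1x GFP. All 12 tested genes of the condensin, cohesin and SMC5/6 group, which organise chromosomes, were called lower against all 5 GFP libraries (edgeR quasi-likelihood test). Their median log2 fold change was -0.79, and 9 were called lower in 1x GFP. The group holds Ncap and Smc symbols only, so other subunits of these complexes were not counted. The condensin subunits Ncaph and Smc2 changed by -1.40 and -1.36. Of 20 centromere proteins 15 were called lower (median -0.89) and 8 were in 1x GFP. Of 10 Fanconi anaemia proteins, which repair DNA crosslinks, 4 were called lower, among them Fancb, with 1.85 to 3.29 CPM with GFP virus and 9.46 CPM without, and Fancd2 (log2 fold change -1.45).

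Smaller differences reached families outside the cell cycle lists. Of 19 nucleoporins, which form the nuclear pore, 10 were called lower and 0 higher (list median -0.40), against 5.83% of all genes lower, and of 22 importins and exportins, which carry cargo through it, 8 were called lower (median -0.24), with Kpna2 at -1.09. Sm and LSm proteins of the spliceosome were called lower in 10 of 22 (median -0.40). Cathepsins went the other way, with 3 of 9 called higher (list median 0.46), against 2.52% of all genes. The 3 include Ctsl and Ctsd, which are already counted among the lysosome genes above. Of 73 ribosomal protein genes, 0 were called by edgeR against all 5 GFP libraries or in 1x GFP, with medians of 0.02 and 0.09, and in the MOI libraries 9 were called higher and 5 lower, shares below the 18.2% and 19.2% of all genes.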
